A study of Arabidopsis thaliana with 4 samples.

Results

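The Arabidopsis thaliana major latex proteins are a family of small proteins named after an abundant protein of opium poppy latex. They share the fold of the birch pollen allergen Bet v 1, a curved sheet and a long helix around a cavity that can hold a hydrophobic ligand, and the abscisic acid receptors of the PYR/PYL/RCAR group use the same fold to bind their hormone. The ligands of most members are not known, and the genes are known mainly for responses to stress, pathogens and hormones. The 9 members described here are MLP28, MLP31, MLP34, MLP43, MLP168, MLP328, MLP329, MLP423 and AT4G23670, out of 37051 loci in the deposited count table. They were picked by locus, with earlier values of the comparison of stk with wild type in view, and they were picked to differ in direction, so their differences between genotypes are given as descriptions, without a test.

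Polyadenylated RNA was sequenced from the funiculus, the stalk that carries each seed and its vascular supply, at flower stage 17, after fertilisation. Wild-type plants of ecotype Columbia were set against plants of the seedstick (stk) mutant, whose allele the labels do not name. Both genotypes grew at 22 °C with 16 h of light, and each gave 2 libraries of 100 funiculi. STK belongs to the MADS-box factors and is known for its role in ovule identity and seed shedding.

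Library totals lay between 4033589 and 12099218 counts. Across the 18092 genes tested, Pearson's r of log2 CPM (read counts scaled to the library sizes, with TMM factors) was 0.753 between the wild-type libraries, 0.777 between the stk libraries and 0.878 between both replicate 2 libraries. Each r runs across genes, and genes are no independent replicates. STK (AT4G09960) itself gave 374 and 555 CPM in the wild-type libraries against 238 and 326 CPM in the stk libraries, and since the lesion is not described, counts summed over the locus are no check of the genotype. Of the fixed marker lists of other tissues, the 9 embryo and seed storage genes summed to 261 and 1.65 CPM in wild-type replicates 1 and 2, and to 138 and 1.48 CPM in stk replicates 1 and 2. The 8 genes of vessels and secondary walls summed to 267 and 84.2 CPM in wild-type replicates 1 and 2, and to 2138 and 212 CPM in stk, so stk replicate 1 stood apart. IRX12 and CESA4 were the largest parts of the sum in stk replicate 1, with 678 and 594 CPM. XCP1 went the other way. It was lowest in stk replicate 1, its genotypes overlapped, and its log2 fold change was -0.53. All the other genes of the list were highest in stk replicate 1. The 4 phloem genes summed to 2132 and 472 CPM in wild type, against 1811 and 838 CPM in stk. The 4 green tissue genes summed to 8639 and 3699 CPM in wild type, against 6090 and 5980 CPM in stk. The 3 epidermis genes summed to between 85.8 and 103 CPM in all libraries. Most of this was ATML1, with 79.4 and 88.0 CPM in wild type against 84.9 and 95.5 CPM in stk. The 6 seed coat genes summed to 49.3 and 79.1 CPM in wild type, against 120 and 108 CPM in stk. Most of this was MUM4, with 32.4 and 74.4 CPM against 96.3 and 77.5 CPM. MUM2 was also higher in both stk libraries, BAN overlapped, and at low levels TT10 was higher and TT12 lower in both. The 4 endosperm genes, with MEA at 0, summed to 5.22 and 6.70 CPM against 29.8 and 12.4 CPM. In stk replicate 1 that sum was FIS2 alone. The seed coat and endosperm sums were higher in both stk libraries. SEOR1 (AT3G01680), a sieve element gene of the phloem list, gave 2.7 and 4.96 CPM in wild type and 70.9 and 48.4 CPM in stk. The other phloem genes, SUC2, APL and PP2-A1, overlapped between the genotypes, with log2 fold changes of -0.13, -0.38 and 0.06. The part of these tissues in the members' values was not tested. Besides STK, the funiculus list held the amino acid exporter genes UMAMIT14 (AT2G39510), with 257 and 130 CPM in wild type against 71.7 and 88.5 CPM in stk, and UMAMIT11 (AT2G40900), with 146 and 34.2 CPM against 79.7 and 70.2 CPM. The genotypes did not overlap for UMAMIT14 and overlapped for UMAMIT11. In bulk samples such as these, fewer cells of a type and less RNA per cell cannot be told apart.

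By protein sequence the 9 members fell into a branch of 5, a branch of 3 and MLP423 alone. MLP28, MLP31, MLP34, MLP43 and MLP168 shared between 51.7% and 90.5% of their aligned residues, with MLP168 the most distant of them, and all of them lie on chromosome 1. MLP328, MLP329 and AT4G23670 shared between 70.2% and 88.1%, although MLP328 and MLP329 lie on chromosome 2 and AT4G23670 on chromosome 4. Between these branches identity was 23.6% to 33.3%, and MLP423 shared 25.5% to 36.8% with the other 8. MLP28, MLP31 and MLP34 are direct neighbours in gene order, and MLP43 lies further along the same run. MLP28 and MLP34 encode longer proteins of 335 and 316 residues in their longest models, while the other members have 151 to 171. Proteins were translated from the coding sequences of RefSeq's TAIR10.1 annotation.

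**Figure D1:**
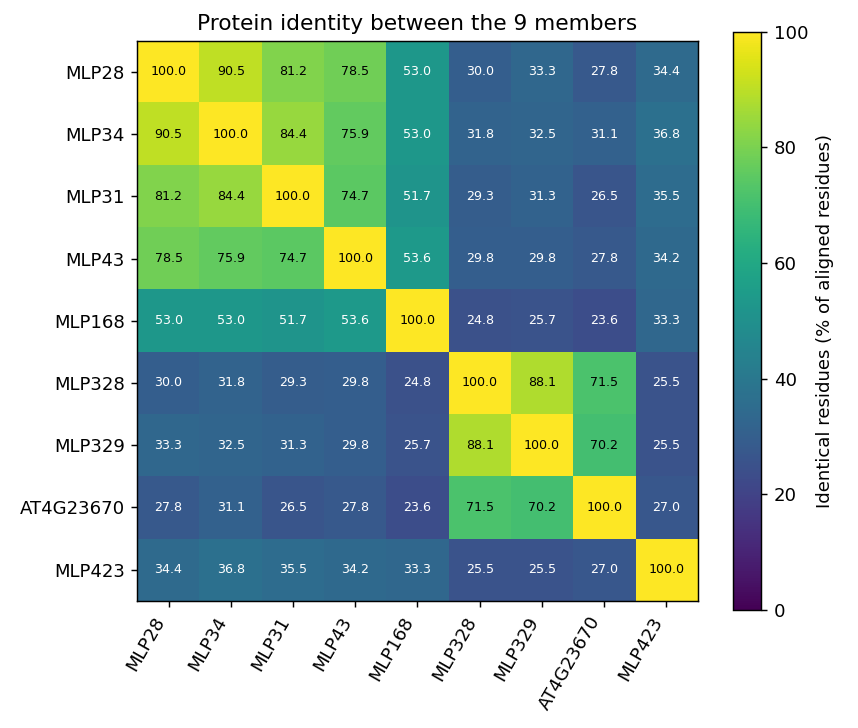
Percentage of identical residues between the proteins of the 9 members, per aligned residue, with the members on both axes in the same order. The block of MLP28, MLP34, MLP31, MLP43 and MLP168 spans 51.7% to 90.5%, and the block of MLP328, MLP329 and AT4G23670 spans 70.2% to 88.1%.

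The closest relatives within each branch can be told apart by short reads, which matters for what follows because each pair shown sets a gene with many counts beside a near copy with few or none. The stretches shown are the first 90 bases of the longest gap-free alignment of each pair, read 5′ to 3′ on the coding strand in TAIR10.1, with bases that differ within the pair in capitals. MLP328 was among the abundant members and MLP329 had no count. Their stretches start at the start codon and lie at chr2:235992-236081 and chr2:239815-239904, both on the plus strand.
MLP328: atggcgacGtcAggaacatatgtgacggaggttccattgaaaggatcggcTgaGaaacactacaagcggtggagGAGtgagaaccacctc
MLP329: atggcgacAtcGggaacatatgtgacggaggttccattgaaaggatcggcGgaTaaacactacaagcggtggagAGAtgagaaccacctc
They differ at 7 of 90 bases, and at 47 of the 456 bases of the coding sequence.

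MLP28 had the most counts of the members in wild type and MLP34 had 3 counts in all. Their stretches lie at chr1:26711267-26711356 and chr1:26716655-26716744 on the minus strand, from coding base 40 of MLP28 and from the start codon of MLP34.
MLP28: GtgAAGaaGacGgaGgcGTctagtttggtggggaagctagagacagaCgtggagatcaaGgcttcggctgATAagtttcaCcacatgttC
MLP34: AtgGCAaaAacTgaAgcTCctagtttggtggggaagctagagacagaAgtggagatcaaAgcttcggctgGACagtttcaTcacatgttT
They differ at 16 of 90 bases, and at 43 of 503 bases of the gap-free block.

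AT4G23670 had the most counts of the members in stk, and its neighbour AT4G23680, a relative outside the 9, had 52 counts in all. Their stretches start at the start codon and lie at chr4:12333567-12333656 and chr4:12337328-12337417 on the minus strand.
AT4G23670: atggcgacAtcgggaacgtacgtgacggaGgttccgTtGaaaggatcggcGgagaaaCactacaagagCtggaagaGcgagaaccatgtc
AT4G23680: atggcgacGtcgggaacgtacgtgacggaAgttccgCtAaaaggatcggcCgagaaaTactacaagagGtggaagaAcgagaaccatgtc
They differ at 8 of 90 bases, and at 63 of the 456 bases of the coding sequence.

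Windows within the annotated exons were searched in the whole genome on both strands. At a length of 50 bases, 97.6% of the windows of MLP28 and 97.3% of those of MLP34 were found once, and 100% of those of the other 7 members. At 100 bases the share was 100% for all 9. For the read length and the handling of reads with several matches, nothing was given in the sources used here. None of the 9 overlaps another annotated gene, so the unstranded library kit leaves no opposite gene to share their reads.

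Of the 9 members, 6 passed the filter on low counts and 3 did not. MLP31 and MLP329 had 0 counts in all 4 libraries. A count of 0 allows up to 3 counts, which is 0.54 and 0.275 CPM in wild-type replicates 1 and 2, and 0.776 and 0.247 CPM in stk replicates 1 and 2, for counting error only. MLP34 had 1, 1, 0 and 1 counts in the same order. Of these 3, MLP31 and MLP34 follow MLP28 in gene order, and MLP329 lies beyond a single annotated gene from MLP328. MLP28 and MLP328 ranked 22 and 93 of the 18092 tested genes by mean CPM in wild type.

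MLP28 (AT1G70830) was lower in stk. Work in Arabidopsis has linked its protein to LCR, the F-box protein whose messenger is cut under the guidance of miR394. Its level was 1319 and 1099 CPM in wild-type replicates 1 and 2, and at 149 and 197 CPM in stk replicates 1 and 2. The stk values lay far below both wild-type values, and the libraries of each genotype lay close together, within 1.2-fold in wild type and 1.33-fold in stk. The means were 1209 ± 156 CPM (SD, n = 2) and 173 ± 34.6 CPM, 6.99-fold apart. The log2 fold change was -2.80 ± 0.43 (SE), the steadiest of the 6 tested members when a library was left out, between -3.03 and -2.59. By mean CPM it moved from rank 22 in wild type to rank 1091 in stk.

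AT4G23670 was higher in stk. Its description is that of the polyketide cyclase/dehydrase and lipid transport superfamily, and it carries no MLP number, although its protein is 71.5% identical to that of MLP328. Its level was 94.5 and 6.98 CPM in wild-type replicates 1 and 2, and at 1034 and 674 CPM in stk replicates 1 and 2. Both stk values were above both wild-type values, but the wild-type libraries themselves differed by 13.5-fold. The means were 50.7 ± 61.9 CPM (SD, n = 2) and 854 ± 254 CPM, and its rank by mean CPM went from 4964 to 80. The log2 fold change was 4.08 ± 1.07 (SE), and leaving out a wild-type library gave 3.18 (replicate 2) or 6.95 (replicate 1). The vessel list was also higher in stk replicate 1 than in stk replicate 2 (2138 and 212 CPM), and its part in these values was not tested.

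MLP423 (AT1G24020), which like MLP28 has been linked to LCR, was also higher in stk. Wild type gave 15.1 and 23.6 CPM, and stk gave 80.5 and 134 CPM. The groups did not overlap, and the libraries of a genotype differed by 1.56-fold in wild type and 1.67-fold in stk. The means were 19.4 ± 6.0 CPM (SD, n = 2) and 107 ± 38.0 CPM, 5.55-fold apart, with a log2 fold change of 2.47 ± 0.50 (SE) that lay between 2.04 and 2.84 with a library left out. Its higher stk library was replicate 2, while that of AT4G23670 was replicate 1.

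MLP168 (AT1G35310) was read in stk alone. It had 0 counts in both wild-type libraries, 104 counts (26.9 CPM) in stk replicate 1 and 71 counts (5.84 CPM) in stk replicate 2. The stk libraries differed by 4.61-fold. With libraries pooled, stk was at least 59.9-fold higher, taking 3 counts over both wild-type libraries together as the floor. The bound covers counting error in wild type only and leaves out the spread between libraries. This bound was 39.7 and 20.2 without wild-type replicates 1 and 2, 32.0 without stk replicate 1 and 148 without stk replicate 2. MLP168 and AT4G23670 were both higher in stk replicate 1, where the vessel list was at its highest. All the other fixed lists except epidermis and funiculus were also higher in stk replicate 1 than in stk replicate 2. The part of these tissues in the values of MLP168 and AT4G23670 was not tested.

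MLP328 (AT2G01520, also ZCE1), known as a gene induced by cis-cinnamic acid, was abundant in every library. Its level was 1080 and 346 CPM in wild-type replicates 1 and 2, and at 827 and 534 CPM in stk replicates 1 and 2. The stk values lay between the wild-type values, and replicate 1 was the higher library in both genotypes. The means were 713 ± 519 CPM (SD, n = 2) and 680 ± 207 CPM, and the log2 fold change was -0.07 ± 0.59 (SE). The SE was larger than the fold change itself, so the value does not show that the gene was the same in both genotypes. The phloem, green tissue, vessel, and embryo and seed storage lists were likewise higher in replicate 1 of both genotypes. Their part in these values was not tested.

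MLP43 (AT1G70890), known to promote abscisic acid responses and drought tolerance, overlapped between the genotypes. Wild type gave 40.1 and 3.67 CPM, and stk gave 23.5 and 23.2 CPM. The wild-type libraries differed by 10.9-fold, with the stk libraries between them. The log2 fold change was 0.10 ± 1.01 (SE), and leaving out a wild-type library gave -0.77 (replicate 2) or 2.69 (replicate 1).

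**Figure D2:**
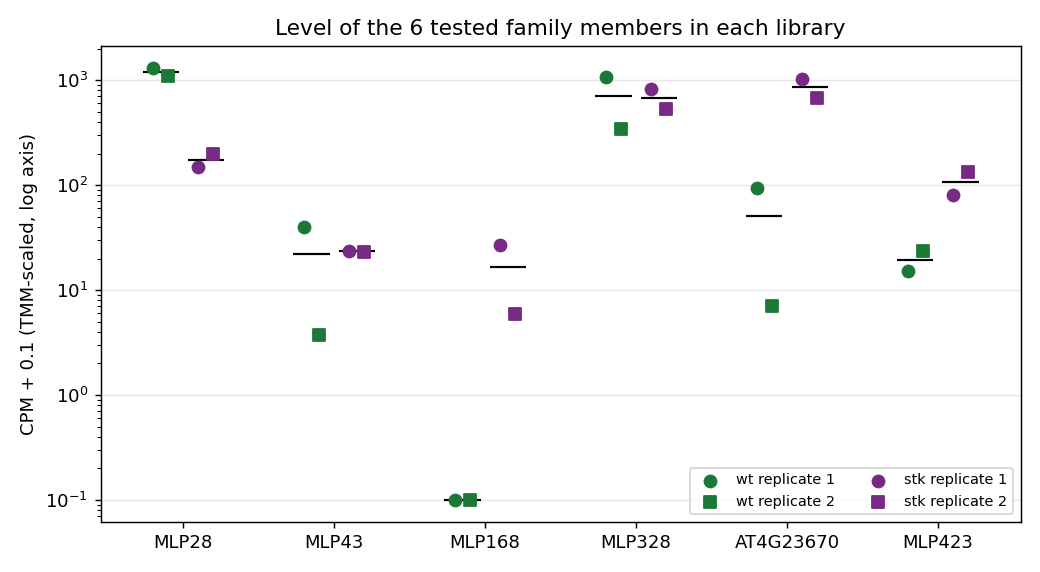
TMM-scaled CPM of the 6 tested members in each of the 4 libraries, on a log axis after adding 0.1, with wild type in green, stk in purple, circles for replicate 1, squares for replicate 2 and black lines for the means (n = 2). MLP28 is lower in both stk libraries, MLP168, AT4G23670 and MLP423 are higher in both, and MLP43 and MLP328 overlap; MLP168 had no wild-type count.

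**Figure D3:**
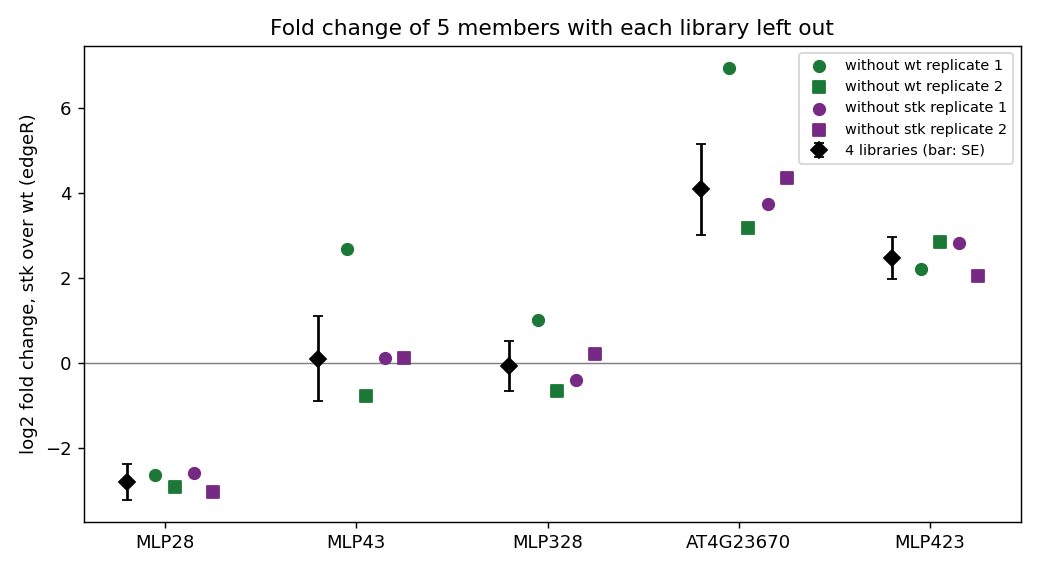
The edgeR log2 fold change of stk over wild type for 5 members, with all 4 libraries (diamond, bar is the SE) and with each library left out (green circle and square for wild-type replicates 1 and 2, purple circle and square for stk replicates 1 and 2). MLP28 stays between -3.03 and -2.59, AT4G23670 ranges from 3.18 to 6.95, and MLP43 and MLP328 fall on both sides of 0.

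Since the members were chosen with this contrast in view, the calls are counts to be read against the background and support nothing. With Benjamini-Hochberg adjustment at 0.05, edgeR's quasi-likelihood test called 0 of the 6 tested members, where it called 0.00553% of all tested genes. At an unadjusted edgeR p under 0.05 it gave 4 of the 6 against 3.36% of all tested genes. DESeq2 called MLP28, MLP168, MLP423 and AT4G23670 (background 0.884%), and limma-voom called MLP28 and AT4G23670 (background 0.205%). edgeR with the replicate number as a block called MLP28, MLP423 and AT4G23670 (background 0.934%), and without the filter on low counts it called 4 of the 7 members it then tested (background 1.17%). The groups did not overlap for those 4 members, where 32.4% of all tested genes did not overlap.

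The make-up of the members' counts differed between the genotypes while their sum did not separate them. Since the members were picked to differ in direction, a shift in their make-up follows from that choice and supports nothing. The 9 members summed to 2549 and 1479 CPM in wild-type replicates 1 and 2, and to 2140 and 1569 CPM in stk replicates 1 and 2, so the stk sums lay between the wild-type sums. MLP28 gave 51.7% (95% Wilson interval 50.9 to 52.6) and 74.3% (73.6 to 75) of the members' counts in wild type, and 6.94% (6.41 to 7.51) and 12.6% (12.1 to 13.1) in stk. AT4G23670 gave 3.71% (3.41 to 4.03) and 0.472% (0.377 to 0.590) in wild type, and 48.3% (47.2 to 49.4) and 43.0% (42.3 to 43.7) in stk. The share of MLP328 was 42.4% and 23.4% in wild type and 38.6% and 34.0% in stk. These shares do not depend on how libraries were scaled, and their intervals cover counting error only.

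**Figure D4:**
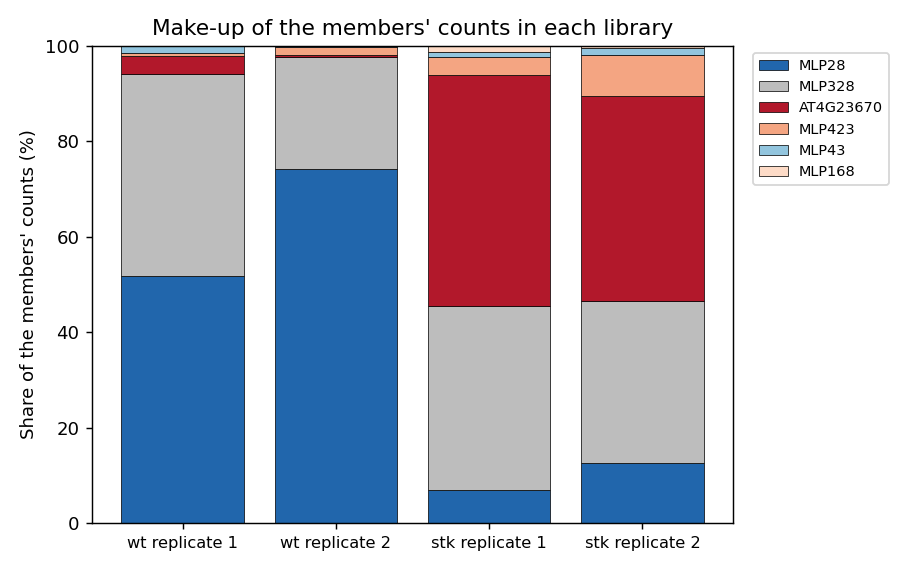
Share of the members' counts (%) given by each of the 6 tested members in each library, as stacked bars that add up to 100% apart from single counts of MLP34. MLP28 (blue) gives 51.7% and 74.3% in wild type and 6.94% and 12.6% in stk, and AT4G23670 (red) gives 3.71% and 0.472% in wild type and 48.3% and 43.0% in stk.

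Levels between members were compared as CPM per kilobase of the longest coding model. In wild type the order was MLP328 at 1564 ± 1139 (SD, n = 2), MLP28 at 1199 ± 155, AT4G23670 at 111 ± 136, MLP43 at 45.9 ± 54.0 and MLP423 at 41.4 ± 12.8. The libraries of MLP328 and MLP28 overlapped, as did those of AT4G23670 with MLP43 and of MLP43 with MLP423, so the separation in this order was between MLP28 and AT4G23670. In stk the order was AT4G23670 at 1872 ± 558, MLP328 at 1492 ± 454, MLP423 at 229 ± 81.1, MLP28 at 172 ± 34.3, MLP43 at 49.0 ± 0.517 and MLP168 at 35.9 ± 32.7. Within it AT4G23670 overlapped with MLP328, MLP423 with MLP28, and MLP43 with MLP168. MLP28 also has shorter models, for which its level per kilobase would be higher.

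The other genes of the family were taken by description: 36 further loci are annotated as MLP-like or as polyketide cyclase and lipid transport superfamily proteins, and 18 of them were tested. None passed edgeR's adjusted threshold, nor that of DESeq2 or limma-voom, and 5 had an unadjusted edgeR p under 0.05 (4 higher and 1 lower in stk), where 3.36% of all tested genes did. Their median log2 fold change was 0.59, with 12 positive and 6 negative, beside a median of -0.08 and 45.8% positive over all tested genes. With a library left out the filter was run again, and more relatives passed it. The median was 0.24 over 21 relatives without stk replicate 1 and 0.98 over 22 without stk replicate 2. Without wild-type replicate 1 it was 1.35 over 24, and without wild-type replicate 2 it was 0.49 over 21. With all 4 libraries, the median of the 18 stayed at 0.59 with AT1G24000, which had no wild-type count, set to its bound. That bound still lies above the median, so the swap could not move it.

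MLP165 (AT1G35260), whose protein is 72.8% identical to that of MLP168, gave 2.34 and 3.49 CPM in wild type, against 15.5 and 35.8 CPM in stk. The groups did not overlap, and the log2 fold change was 3.13 ± 1.0 (SE), which edgeR did not call. AT1G24000, on the same chromosome as MLP423 and 44.2% identical to it, had 0 counts in wild type and 29 and 42 counts in stk, which makes stk at least 24.3-fold higher over the same kind of floor. That bound was 8.21 with wild-type replicate 2 left out and 41.1 with stk replicate 2 left out. AT3G11720, a longer protein of the same annotation, gave 9.72 and 13.5 CPM in wild type, against 34.7 and 32.7 CPM in stk. The most abundant relatives were AT5G54170, with means of 298 ± 176 and 477 ± 266 CPM for wild type and stk (SD, n = 2), CP5 (AT1G64720), with 228 ± 157 and 168 ± 9.92 CPM, and AT5G06440, with 116 ± 50.5 and 102 ± 6.28 CPM, none of which had an unadjusted p under 0.05. Their proteins, of 449, 385 and 486 residues, aligned with no member over 80% of the shorter protein.

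Most of the close relatives were nearly silent in the funiculus. Of the 36, 19 had at least 40% protein identity to a member over most of the shorter protein. Of these 19, 3 passed the filter on low counts, 4 had no count in any library, 6 had counts in stk alone and 3 in wild type alone. Of those 6, 5 had them in a single stk library, and all 3 of the others in wild-type replicate 2. Over all 37051 loci, 4.25% had counts in stk alone and 3.58% in wild type alone. Summed over the 19, the level was 5.94 and 12.6 CPM in wild type and 67.8 and 45.2 CPM in stk, and MLP165 had the highest total, 546 counts. Among relatives that lie next to a member, AT1G70860 beside MLP34 had 1, 0, 7 and 9 counts in wild-type replicates 1 and 2 and stk replicates 1 and 2. AT1G24010 next to MLP423 had counts in stk replicate 2 alone (14). AT4G23680, next to AT4G23670 and 79.5% identical to it, had 7, 31, 0 and 14 counts. Its highest count was thus in wild-type replicate 2, the library in which AT4G23670 was lowest.

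The abscisic acid receptors, which share the fold, were read for 8 of 14 genes above the filter, and 2 of these, PYR1 and PYL5, also carry the family's description. None passed edgeR's adjusted threshold, DESeq2's or limma-voom's, with 2 at an unadjusted edgeR p under 0.05, beside the same 3.36% of all tested genes. Their median log2 fold change was -0.34 with 2 positive and 6 negative, beside the -0.08 and 45.8% positive of all tested genes. PYL5 (AT5G05440) gave 142 and 81.3 CPM in wild type, against 61.3 and 40.4 CPM in stk, and its log2 fold change was -1.14 ± 0.47 (SE). PYR1 (AT4G17870) gave 45 and 38.6 CPM in wild type, against 91.1 and 73.2 CPM in stk, and its log2 fold change was 0.98 ± 0.42 (SE). For both genes the genotypes did not overlap, and edgeR's adjusted p was 1. PYL6 (AT2G40330) gave 45.7 and 60.3 CPM in wild type, against 43.0 and 29.4 CPM in stk. Without wild-type replicate 1 the median of the 8 was 0.20, with 5 positive and 3 negative, and without wild-type replicate 2 it was -0.63. LCR (AT1G27340) gave 27.4 and 15.3 CPM in wild type, against 31.3 and 14.5 CPM in stk, so the genotypes overlapped and replicate 1 was higher in both.

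Likeness of pattern was measured as the Euclidean distance of centred log2 CPM over the 4 libraries, among the 15571 tested genes whose mean reached 5 CPM. Nearest to MLP28 were AT3G21010 (distance 0.312), the abscisic acid response factor gene ABF3 (0.535) and the auxin influx carrier gene LAX1 (0.542). ABF3 gave 276 and 258 CPM in wild type, against 42.4 and 33.7 CPM in stk. Nearest to AT4G23670 were TBL27 (0.566), of a family that acetylates wall polysaccharides, AT1G35290 (0.599), annotated as a thioesterase superfamily protein, and AT4G09760 (0.819), annotated as a protein kinase superfamily protein. Among the members, MLP43 and MLP328 were nearest to each other (1.51), AT4G23670 and MLP168 were nearest to each other (2.93), and MLP28 was farthest from MLP168 (8.71). With 4 libraries such distances are descriptions. Neither pair of nearest members belongs to one sequence branch.

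Promoter windows from 250 bases before to 50 bases after each annotated gene start were searched on both strands for a CArG box, the kind of site that MADS-box factors are known to bind, and for the G-box CACGTG. Neither was found in the windows of the 9 members. Over 27443 protein-coding genes, 3.05% of windows held a CArG box and 7.68% a G-box. The search covers these letters in these windows and no more.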

How the data were processed

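The authors deposited unnormalized counts of reads for 37051 loci in 4 libraries. The submitters' processing notes name featureCounts 1.6.3, STAR 2.7.0, Trimmomatic 0.38 and DESeq2 1.38.3, with no role stated. For genome build, annotation and strand setting, nothing was given in the sources used here. RefSeq's TAIR10.1 annotation, which matched every locus, supplied names, proteins and sequences.

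Genes were tested with edgeR 4.0.16 in R 4.3.3 (TMM, filterByExpr, genotype as the single term, quasi-likelihood test, Benjamini-Hochberg over 18092 genes). Alternatives were limma-voom (limma 3.58.1), DESeq2 1.42.0, other scalings and filters, a replicate block and each library left out. CPM used TMM-scaled library sizes. The SE of a log2 fold change came from the quasi-likelihood F statistic. Proteins were aligned globally with Biopython 1.88 (BLOSUM62, end gaps free); identity counts aligned residues.

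The labels call the replicates biological, so p-values measure the spread between 2 samples per genotype. The members, lists and tests were chosen with earlier results of these data known. Named genes are all members; relatives with an unadjusted p under 0.05, among the 3 most abundant, or next to a member; 3 receptors by p and 3 by level; LCR, STK; and the 3 genes nearest to MLP28 and to AT4G23670. The search for unique windows and the grouping of relatives by identity were added after the data were seen. The procedures were first tested on simulated data with 100 genes changed 4-fold and 100 changed 16-fold. At the adjusted threshold edgeR recovered 8 of the 4-fold and 65 of the 16-fold changes and called 4 unchanged genes. DESeq2 recovered 40 and 90 and called 105 unchanged genes. For limma-voom the values were 19 and 48, with 6 unchanged genes called.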

Additional observations from a re-analysis of the deposited data

How the results depend on the processing

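edgeR called 1 gene of all tested and 0 members. DESeq2 called 160 genes and 4 members, limma-voom 37 and 2, edgeR without the filter on low counts 275 and 4, and edgeR with the replicate block 169 and 3 (MLP28, MLP423 and AT4G23670). With a minimum of 5 CPM on the mean, edgeR called 0 genes and 0 members (567 genes at an unadjusted p under 0.05). With a library left out, edgeR called 5 to 198 genes and 0 to 2 members: MLP28 and AT4G23670 without either wild-type library, and none without either stk library. The lone library of a genotype is then assumed to vary like the other genotype's. The 36 relatives had 0 calls under every alternative run. The labels give both genotypes replicate numbers 1 and 2 but do not say that a number marks a shared batch. The deviations of replicate 1 from replicate 2 correlated at 0.245 between genotypes, a hint from the data and not the design.

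Over 66 alternative values of the 6 tested members, 5 turned the direction. MLP328, at -0.07, was 0.13 with limma-voom, 0.12 with the replicate block and 0.21 with stk replicate 2 left out; leaving out a wild-type library gave -0.66 (replicate 2) to 1.0 (replicate 1). MLP43, at 0.10, was -0.77 with wild-type replicate 2 left out and 2.69 with replicate 1 left out. The cause was not tested. Directions of MLP28, MLP168, MLP423 and AT4G23670 held in all 11 alternatives each. Since their groups did not overlap, leaving out a library could hardly turn the direction, and the other alternatives refit the same libraries. That the directions held is thus no support. The median log2 fold change of all genes was -0.075, and -0.24 without stk replicate 2, so folds there are relative to that shift. Depth limits the silent members: 3 counts are 0.776 CPM in the shallowest library.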
